A study of Bos taurus with 138 samples.

Results

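A set of 9 genes whose products the oocyte stores for the early embryo were followed here through bovine oocytes and preimplantation embryos. They are NLRP5, TLE6, OOEP, PADI6 and ZBED3, which are counted with the subcortical maternal complex, and NPM2, ZAR1, DPPA3 and TRIM28, which are maternal effect genes with roles outside it. They were taken by symbol from the deposited count table, which held 9 of 9 among 16706 genes. Messenger RNA was sequenced at 6 stages, namely GV (germinal vesicle) oocytes, MII (metaphase II) oocytes, and 2-cell, 8-cell, morula and blastocyst embryos. At each stage 2 sucrose gradients, A and B, were cut into 10 fractions, and 3 further libraries, A to C, measured the whole transcriptome. All oocytes came from ovaries of slaughtered Bos taurus cattle. Maturation, fertilization with semen of a single Holstein bull and culture were all done in vitro, every group was treated with cycloheximide before lysis in the gradient work, and no group carried an engineered allele. Each library was made from pooled oocytes or embryos, so no value belongs to 1 embryo, and the design describes the gradients as biological duplicates and the transcriptomes as biological triplicates from the same batches.

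The subcortical maternal complex is a large assembly of maternal proteins beneath the plasma membrane of mammalian eggs and cleaving embryos, and loss of its subunits in mice arrests embryos at early cleavage. Its messages are made while the oocyte grows, are stored and translated on a schedule, and are degraded as the embryonic genome takes over, which in cattle happens mainly around the 8-cell stage. Polysome profiling separates messages by the number of ribosomes they carry, since heavier complexes travel deeper into a sucrose gradient.

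Fractions F1 and F2 hold free RNA, F3 to F5 monosomes, F6 and F7 an intermediate class and F8 to F10 polysomes. Levels are given as CPM, the count of a gene scaled to a common library total and adjusted by TMM factors. Totals ran from 1229382 to 17342859 counts in the 120 fraction libraries and from 3269386 to 11812567 in the 18 transcriptomes. Each library was scaled to the same total, so a fraction with little RNA weighs as much as one with much RNA, and neither the fraction profiles nor the changes between stages count molecules. In these bulk samples, fewer cells of a type and less RNA per cell cannot be told apart. In 4 fraction libraries, namely F10 of MII gradient B, F1 of 2-cell gradient A, F9 of morula gradient A and F1 of blastocyst gradient B, far fewer genes were detected than in the others of their stage. The labelled stages were checked against markers. The summed level of 7 oocyte markers was 16148 to 19808 CPM in GV transcriptomes and 202 to 279 CPM in blastocysts, while 9 blastocyst lineage markers went from 57.1 to 66.7 CPM up to 5507 to 6706 CPM. The sum of 12 cumulus and granulosa markers was 357 to 394 CPM in 2-cell transcriptomes and 1595 to 10208 CPM in 8-cell transcriptomes. In gradient fractions it was 634 to 1193 CPM at the 2-cell stage and 87.6 to 744 CPM, with a median of 278, at the 8-cell stage. LUM, which encodes the matrix protein lumican, was alone at 9594, 2101 and 1362 CPM in 8-cell transcriptomes A, B and C. The part of these transcripts in the 8-cell values below was not tested.

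Between the 2-cell and the 8-cell stage, 7 of the 8 tested genes fell in the transcriptome and 1 rose. NLRP5, TLE6, OOEP, PADI6, NPM2, ZAR1 and DPPA3 fell, and TRIM28 rose. A call required an adjusted p below 0.05 in edgeR's quasi-likelihood test with Benjamini-Hochberg adjustment over all 14612 genes tested, and a fold above 2. Among all of these genes 23.5% fell and 26.6% rose in the same comparison. The median log2 change was -4.02 over the 8 genes and 0.03 over all genes. None of the 25 alternatives removed any of these 8 calls. Of these, 1 dropped the fold limit and could not remove a call. Those that left out a replicate of another stage kept all the libraries compared here.

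**Figure D1:**
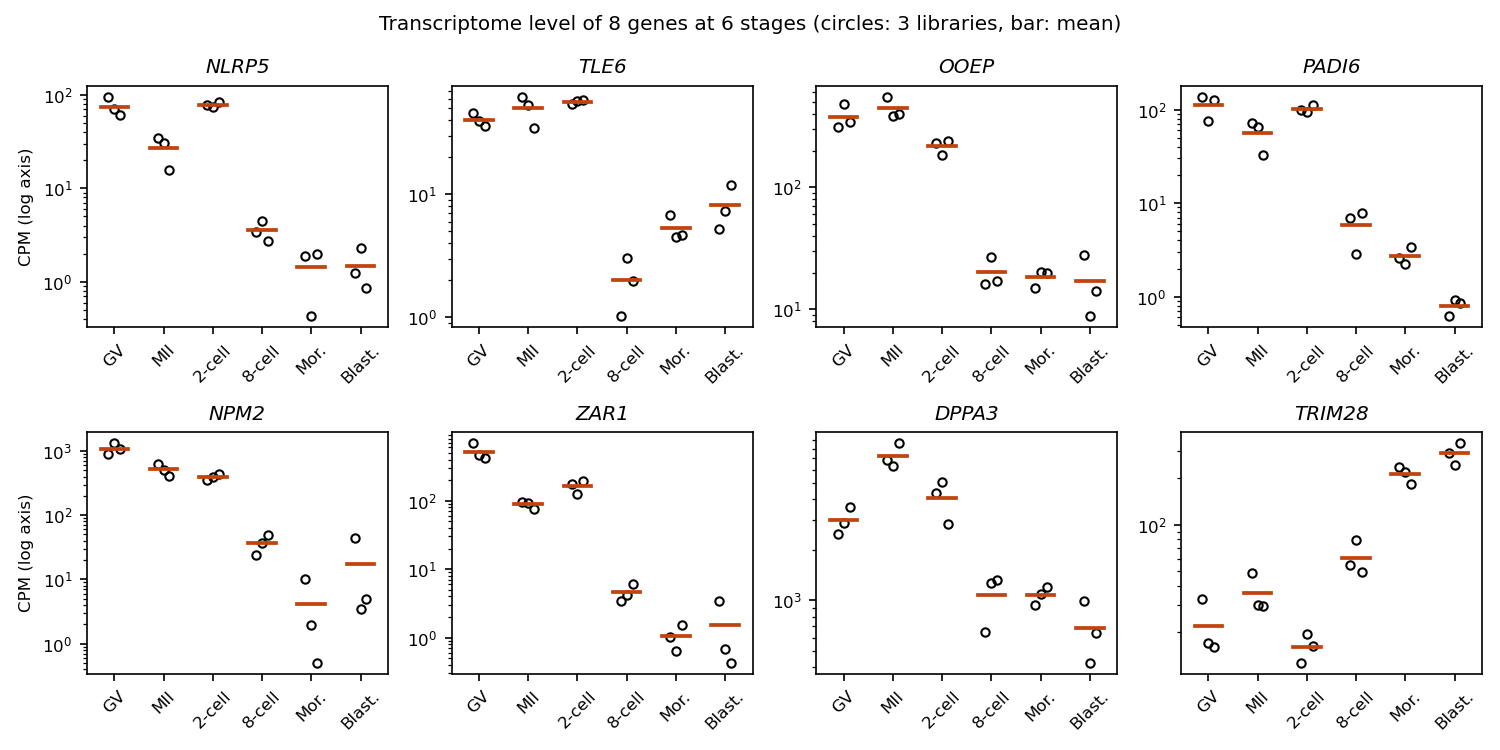
Transcriptome level in CPM (log axis) of 8 of the 9 genes at the 6 stages, with circles for the 3 libraries of a stage and a bar for their mean. The 3 circles of the 8-cell stage lie below all 3 circles of the 2-cell stage for every gene except TRIM28, where they lie above.

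NLRP5 encodes a core scaffold protein of the complex, also called MATER. Its level was 77.8, 73.9 and 84.1 CPM in the 3 2-cell transcriptomes and 3.45, 4.46 and 2.74 CPM in the 3 8-cell transcriptomes. The groups were far apart, with every 8-cell library below every 2-cell library, and the log2 change was -4.71 ± 0.93 (SE, adjusted p = 0.0002, edgeR). The mean of 78.6 ± 5.14 CPM (SD, n = 3) at the 2-cell stage overlapped in range with the 74.9 ± 17.8 CPM of GV oocytes, and MII oocytes stood lower, at 26.9 ± 9.86 CPM. The GV to MII difference of -1.43 on the log2 scale did not pass the test (adjusted p = 0.24, edgeR). In morulae and blastocysts NLRP5 was close to the limit of detection, with 4 to 17 counts per library.

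TLE6, a member of the Groucho family of co-repressors that works in the complex rather than in transcription, was at 54.3, 57.3 and 58.7 CPM in 2-cell transcriptomes. In 8-cell transcriptomes it was at 1.01, 3.01 and 1.97 CPM, a log2 change of -5.08 ± 0.44 (adjusted p = 1.68e-09, edgeR). All 8-cell values were low and the groups did not overlap. TLE6 then had 6.83, 4.50 and 4.64 CPM in morulae, each above each 8-cell library, and its rise of 1.47 ± 0.41 passed the test (adjusted p = 0.015, edgeR). That call was lost when 8-cell replicate A, 8-cell replicate C or morula replicate A was left out, with log2 changes of 1.17, 1.45 and 1.26. The MII mean of 50.1 CPM overlapped in its libraries with both GV (40.6 CPM) and 2-cell (56.8 CPM), while the GV and 2-cell libraries did not overlap with each other.

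OOEP, an RNA-binding KH domain protein also called FLOPED, was at 232, 183 and 238 CPM in 2-cell and at 16.03, 27.0 and 17.1 CPM in 8-cell transcriptomes. The groups did not overlap, and the log2 change was -3.69 ± 0.37 (adjusted p = 1.70e-08, edgeR). From the 8-cell stage on its level stayed within one range, since the means of 20.03, 18.3 and 16.97 CPM in 8-cell embryos, morulae and blastocysts overlapped in their libraries. OOEP also fell from MII oocytes (550, 386 and 397 CPM) to 2-cell embryos, by 1.21 ± 0.33 on the log2 scale (adjusted p = 0.016, edgeR). This earlier call was lost under scaling by library totals, which moved the median of all genes by 0.46, and without MII replicate A, 2-cell replicate A or 2-cell replicate B (-1.03, -1.25 and -1.09).

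PADI6, a member of the peptidylarginine deiminase family needed for the cytoplasmic lattices of the egg, was at 97.8, 94.1 and 111 CPM in 2-cell transcriptomes. It was at 6.90, 2.90 and 7.78 CPM in 8-cell transcriptomes, far below, with a log2 change of -4.35 ± 0.49 (adjusted p = 9.96e-08, edgeR). The means went down further, to 2.74 ± 0.59 CPM in morulae and 0.797 ± 0.16 CPM in blastocysts. The libraries of the latter 2 stages did not overlap, but the step of -1.60 had an adjusted p of 0.078 (edgeR). Blastocyst values rested on 2 to 4 counts per library.

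ZBED3, described in mice as an interaction partner of the complex, was hardly present. It had 5 counts in all over the 18 transcriptomes, in 4 of them, and 181 counts over the 120 fraction libraries, in 37 of them. Its highest level was 1.56 CPM. All of those counts were in GV, MII and 2-cell libraries. In 8-cell embryos, morulae and blastocysts it had 0 counts in each of 60 fraction libraries and 9 transcriptomes, where 3 counts of a library correspond to between 0.173 and 2.44 CPM over all 138 libraries. It did not reach the expression filter of the fit with transcriptomes, and no direction is given for it.

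NPM2, the nucleoplasmin that decondenses sperm chromatin, had its highest transcriptome level in GV oocytes, at 889, 1308 and 1058 CPM. It was at 357, 390 and 444 CPM in 2-cell and at 24.1, 37.1 and 49.9 CPM in 8-cell embryos, with no overlap (-3.68 ± 0.90, adjusted p = 0.0016, edgeR). In morulae it was at 10.2, 1.93 and 0.502 CPM, again all below the 8-cell libraries. This second fall of -3.08 ± 0.91 (adjusted p = 0.022, edgeR) was lost without 8-cell replicate C or morula replicate C (-2.83 and -2.57). Blastocyst transcriptome A, at 43.8 CPM, stood apart from B and C at 3.45 and 4.91 CPM.

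ZAR1, which binds and stores maternal messages, was the one member of the 9 with a called fall during maturation. It was at 687, 466 and 415 CPM in GV and at 96.1, 93.8 and 75.6 CPM in MII transcriptomes, and these groups did not overlap (-2.51 ± 0.63, adjusted p = 0.0058, edgeR). In 2-cell embryos it was at 173, 127 and 192 CPM, above all MII libraries, but the difference of 0.71 did not pass (adjusted p = 0.55, edgeR). The 8-cell libraries were far lower, at 3.45, 4.23 and 6.03 CPM. This log2 change of -5.42 ± 0.74 (adjusted p = 1.73e-06, edgeR) was the largest of the 8 genes at that step.

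DPPA3, also called STELLA, protects the maternal genome from loss of DNA methylation in the zygote. Unlike ZAR1 it was higher in MII than in GV transcriptomes, at 6858, 6266 and 8577 CPM against 2495, 2889 and 3596 CPM. All MII values were above all GV values, and the rise of 1.31 ± 0.32 passed the test (adjusted p = 0.0045, edgeR) but was lost without GV replicate A (1.08, adjusted p = 0.083) and under scaling by library totals. It then fell to 4362, 5069 and 2832 CPM at the 2-cell stage (-1.01 ± 0.32, adjusted p = 0.036, edgeR), a call lost under 8 of 25 alternatives, 5 of which left out a replicate of GV, MII or 2-cell and 1 of which added the replicate letter as a block (adjusted p = 0.056). At the 8-cell stage it was at 647, 1268 and 1321 CPM, below every 2-cell library (-2.17 ± 0.33, adjusted p = 7.58e-06, edgeR). DPPA3 stayed detected thereafter, with means of 1079 ± 133 CPM in morulae and 685 ± 288 CPM in blastocysts, and the ranges of 8-cell embryos, morulae and blastocysts overlapped from one to the next in order of their means.

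TRIM28, also called KAP1, is the co-repressor that KRAB zinc finger proteins recruit to chromatin, and it is made by the embryo as well as by the oocyte. Its lowest mean was in 2-cell transcriptomes, whose range overlapped with that of GV oocytes, at 12.7, 19.5 and 16.3 CPM. Its level was 54.4, 79.1 and 49.1 CPM at the 8-cell stage, 234, 217 and 184 CPM in morulae and 290.2, 244 and 335 CPM in blastocysts. Each of these stages lay above the previous one without overlap. The rises to the 8-cell stage (1.67 ± 0.28, adjusted p = 3.44e-05) and to the morula (1.85 ± 0.28, adjusted p = 8.45e-05) passed edgeR's test, and the step of 0.60 to the blastocyst did not (adjusted p = 0.12). An earlier fall from MII to 2-cell of 1.34 ± 0.28 passed as well (adjusted p = 0.0019, edgeR) but not under scaling by library totals, where it was -0.84.

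At the other steps fewer of the genes moved. From GV to MII, 1 of 8 rose (DPPA3) and 1 fell (ZAR1), where 6.61% and 10.5% of all genes did so. From MII to 2-cell, 3 fell (OOEP, DPPA3 and TRIM28) against 5.96% of all genes. From 8-cell to morula, 2 rose (TLE6 and TRIM28) and 1 fell (NPM2), against 6.6% and 7.75%. From morula to blastocyst, 0 of 8 were called by edgeR's quasi-likelihood test, where 10.2% of all genes rose and 11.4% fell. Of the 8, 3 had an unadjusted p below 0.05, and the likelihood ratio test and DESeq2 called 1 each. Between GV oocytes and blastocysts, 7 of 8 fell and TRIM28 rose by 3.54 ± 0.30, and among all genes 27.4% fell and 26.9% rose. The 7 falls ran from -2.31 for DPPA3 to -8.75 for ZAR1.

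In the polysome pools F8 to F10 of a gradient were summed. At the 2-cell to 8-cell step the calls were largely of the same genes as in the transcriptomes, and at other steps the called genes differed in part. A call made in polysomes but not in transcriptomes, or the reverse, is no test of a difference between them. That test, given below, called 0 of 8 genes from GV to MII and from MII to 2-cell. NLRP5 had mean levels over F8 to F10 of 1826 CPM in gradient A and 1956 CPM in gradient B of 2-cell embryos, and of 96.1 and 128 CPM in 8-cell embryos. Both 8-cell gradients were far below both 2-cell gradients. At this step 6 of 8 genes fell, against 25.2% of all genes, and TRIM28 rose, against 21% of all genes. The falls were 4.23 for NLRP5, 3.17 for TLE6, 2.34 for OOEP, 3.22 for PADI6, 3.98 for ZAR1 and 1.43 for DPPA3 on the log2 scale, while the median of all genes was -0.26. NPM2 was at 70.5 and 92.5 CPM in 2-cell and 29.1 and 23.1 CPM in 8-cell polysomes, and its difference of -1.94 ± 1.03 did not pass (adjusted p = 0.12, edgeR). TRIM28 was at 43.2 and 31.2 CPM in 2-cell polysomes and at 319 and 323 CPM in 8-cell polysomes, a rise of 2.88 ± 0.36 (adjusted p = 9.71e-07, edgeR). The DPPA3 call was lost without 2-cell replicate A (-1.20, adjusted p = 0.052).

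During maturation 2 subunits of the complex rose in polysomes, against 3.03% of all genes. TLE6 was at 473 and 1072 CPM in GV and at 1918 and 2085 CPM in MII polysomes. OOEP was at 861 and 1338 CPM in GV and at 2842 and 3955 CPM in MII polysomes. Both MII gradients were above both GV gradients for each gene. The rises were 1.49 ± 0.44 for TLE6 (adjusted p = 0.045) and 1.61 ± 0.41 for OOEP (adjusted p = 0.021, edgeR's quasi-likelihood test for both). Neither rise was stable. TLE6 lost its call under 12 of 27 alternatives, among them scaling by library totals and the absence of a filter on low counts, and OOEP under 6, among them the one without the 4 sparse libraries. PADI6, at 2991 and 5293 CPM in GV and 7374 and 6224 CPM in MII polysomes, had a difference of 0.83 that did not pass (adjusted p = 0.43, edgeR). OOEP and TLE6 were also higher in MII outside polysomes. In monosomes OOEP was at most at 180 CPM in GV and at least at 1106 CPM in MII gradients. TLE6 was at 396 and 288 CPM in GV and at 1300 and 1434 CPM in MII monosomes. Mean polysome shares were 53.9% in GV and 44.6% in MII for OOEP and 38.8% and 38.5% for TLE6, with overlapping gradients. Whether the 2 rises were particular to polysomes was not tested.

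After fertilization OOEP, TLE6 and TRIM28 fell from MII to 2-cell polysomes, against 5.14% of all genes, by 1.79, 1.97 and 1.45 on the log2 scale. For TLE6 the 2-cell levels of 504 and 544 CPM were far below the MII levels. Each of these 3 calls was lost in at least 1 fit without a 2-cell replicate. In the same step ZAR1 was at 729 and 695 CPM in MII and at 735 and 778 CPM in 2-cell polysomes, a log2 difference of 0.07 ± 0.73.

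From the 8-cell stage to the morula, 5 of 8 genes fell in polysomes, against 17.7% of all genes, and TRIM28 rose by 1.10 ± 0.34, against 18.5%. NLRP5, PADI6, NPM2 and ZAR1 fell by 4.10, 3.63, 3.66 and 4.56 on the log2 scale, and OOEP by 1.43. The OOEP call was lost without 8-cell replicate A or morula replicate B, and the TRIM28 call without 8-cell replicate A, under scaling by library totals and with F7 to F10 as polysomes. Behind these falls the 2 morula gradients differed. NLRP5 was at 0.0329 CPM in the polysomes of gradient A and at 11.3 CPM in those of gradient B. PADI6 was at 9.71 and 59.0 CPM, ZAR1 at 0 and 3.81 CPM, and NPM2 at 0 and 3.62 CPM. Gradient B was the higher one for each of these 4 genes, while OOEP (65.7 and 61.6 CPM) and TLE6 (42.8 and 38.0 CPM) were alike in both. Over its 10 fractions morula gradient A held a single NLRP5 count, and gradient B held 2020.0 counts. From morula to blastocyst PADI6 and ZAR1 fell by 2.54 and 4.63, against 8.13% of all genes, and both rested on morula gradient B. Without morula replicate B the change was -0.93 (adjusted p = 0.20) for PADI6 and 3.72 (adjusted p = 0.26) for ZAR1 in edgeR. The PADI6 call was also lost without blastocyst replicate A, and the ZAR1 call without either blastocyst replicate and with F7 to F10 as polysomes. The NLRP5 change of -2.38 did not pass (adjusted p = 0.14), and it was 4.54 without morula replicate B. Between GV and blastocyst polysomes 7 of 8 fell and 1 rose, against 29.4% and 24.4% of all genes. TRIM28 was the gene that rose, by 2.05 ± 0.35, and DPPA3 fell least of the 7, by 1.72 ± 0.40.

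**Figure D2:**
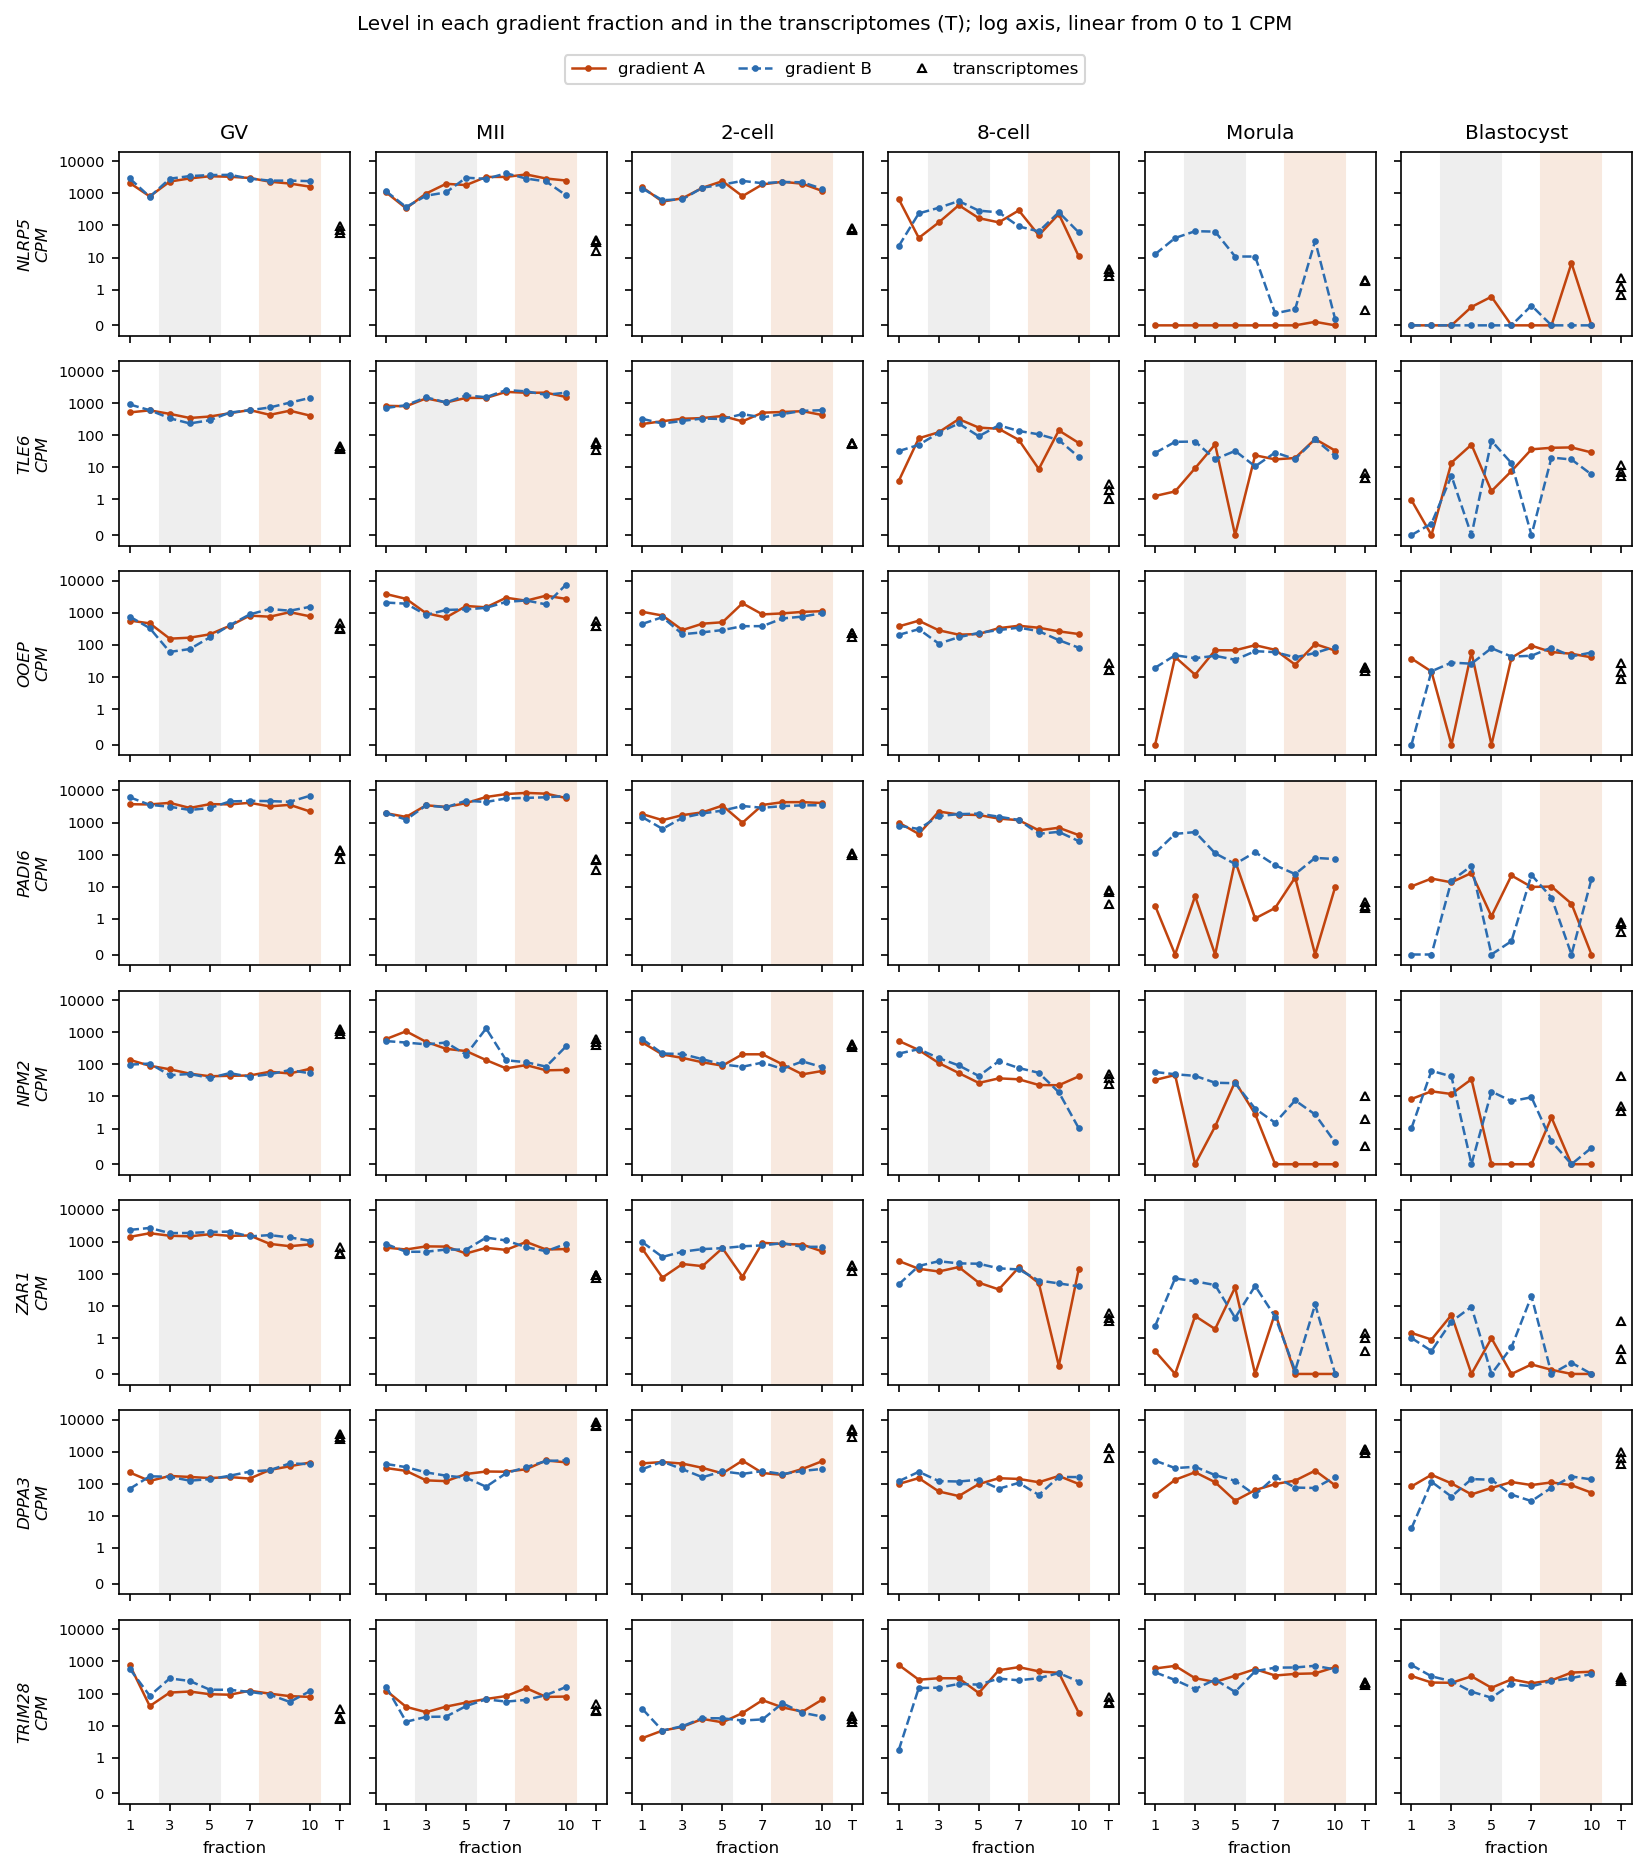
Level of 8 genes (rows) in fractions F1 to F10 of gradient A (solid) and gradient B (dashed) and in the 3 transcriptomes (triangles at T), at the 6 stages (columns), in CPM on a log axis that is linear from 0 to 1; grey bands mark monosomes and orange bands polysomes. NLRP5, TLE6 and PADI6 lie above their transcriptomes in all 60 fraction libraries of the first 3 stages, and DPPA3 lies below in all 120.

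For several of the genes the levels in gradient fractions lay apart from those in transcriptomes. PADI6 was at 136, 75.3 and 126 CPM in the GV transcriptomes, and its 20 GV fraction libraries had a lowest value of 2221, a median of 3701 and a highest of 6799.9 CPM. NLRP5 was at 94.7, 69.9 and 60.1 CPM in the GV transcriptomes and from 782 to 3781 CPM in the fractions, with a median of 2682. TLE6 was at 46.1, 39.7 and 36.1 CPM in the GV transcriptomes and from 233 to 1449 CPM in the fractions. For all 3 genes each of the 60 fraction libraries of GV oocytes, MII oocytes and 2-cell embryos was above all 3 transcriptomes of its stage, and so was each of the 20 at the 8-cell stage. ZAR1 was above in 57 of the 60 and OOEP in 49. The share of all genes that lie apart in this way was not determined, so these counts do not set the members apart from other genes.

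DPPA3 and NPM2 went the other way. DPPA3 was below all 3 transcriptomes of its stage in each of the 120 fraction libraries, for example at 81.1 to 537 CPM in MII fractions. NPM2 was below in all 20 libraries of GV oocytes, at 37.9 to 138 CPM, in 12 of 20 of MII oocytes and in 18 of 20 of 2-cell embryos. In 8-cell embryos it was above in 11 and below in 4. For these counts too the share of all genes was not determined.

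In the test of polysome pools against transcriptomes there were 40 calls in 48 tests of 8 genes at 6 stages, where 48.7% of the tests over all genes gave a call. In GV oocytes 5 of 8 genes were higher in polysomes and 2 were lower, against 21.6% and 17% of all genes. The difference was 5.23 ± 0.51 for PADI6 (adjusted p = 2.28e-08), 4.92 ± 0.94 for NLRP5 (adjusted p = 0.00018) and 4.27 ± 0.42 for TLE6 (adjusted p = 2.15e-08) in edgeR's test. DPPA3 had a difference of -3.02 ± 0.40 (adjusted p = 1.77e-06, edgeR) and NPM2 had a difference of -4.19 ± 1.09 (adjusted p = 0.0036, edgeR), which was lost without GV replicate A or B. In MII oocytes 6 genes were higher and 1 lower, against 30.4% and 26.2% of all genes, and PADI6 reached 6.99 ± 0.55. In 2-cell embryos it was again 6 and 1, against 28.5% and 21.3%, and in 8-cell embryos 6 and 1, against 27.4% and 30.3%. The genes that were higher at these 3 stages were NLRP5, TLE6, OOEP, PADI6, ZAR1 and TRIM28, and DPPA3 was lower. The median difference of all genes was 0.18 at the 2-cell and -0.26 at the 8-cell stage. The ZAR1 call in 2-cell embryos was lost without 2-cell replicate B (2.21, adjusted p = 0.066).

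In morulae 5 genes were higher and 1 lower, against 25.9% and 24.5% of all genes. The NLRP5 difference of 2.46 ± 0.98 in morulae (adjusted p = 0.039, edgeR) rested on gradient B, since it was -4.91 (adjusted p = 0.016) without replicate B, and it missed the threshold with the replicate letter as a block (adjusted p = 0.080). It was lost under 10 of 29 alternatives. In blastocysts 3 genes were higher (TLE6, OOEP and PADI6) and 3 lower (NPM2, ZAR1 and DPPA3), against 19.4% and 19.5%. The TLE6, NPM2 and ZAR1 calls in blastocysts were lost without blastocyst replicate A, and that of ZAR1 without replicate B as well. DPPA3 kept its call at all 6 stages under every alternative run.

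**Figure D3:**
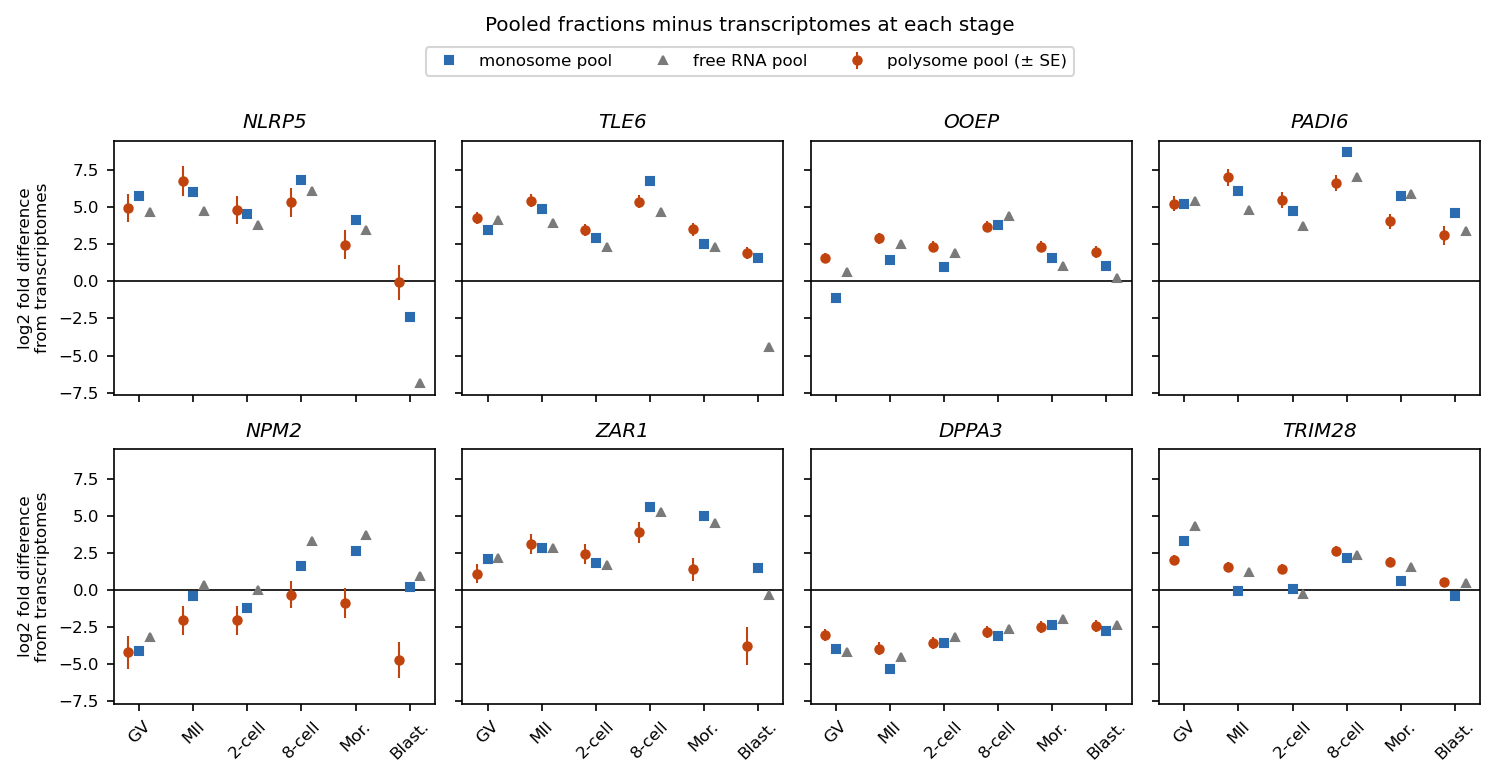
Log2 fold difference between a pool of fractions and the transcriptomes of the same stage for 8 genes, with the polysome pool as circles with SE, the monosome pool as squares and the free RNA pool as triangles. For NLRP5, TLE6, PADI6 and DPPA3 the 3 pools lie on the same side of 0 from GV oocytes to morulae.

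The gap was also present outside polysomes. With the monosome pool (F3 to F5) in place of polysomes, PADI6 differed from the transcriptomes by 5.17 in GV oocytes and by 8.69 in 8-cell embryos, and with the free RNA pool (F1 and F2) by 5.38 and 7.03. For NLRP5 the GV differences were 5.71 with monosomes and 4.63 with free RNA, and for DPPA3 they were -3.95 and -4.18. Over the 6 stages, 38 of the 48 tests gave a call with monosomes and 38 with free RNA, against 54.6% and 48.7% of the tests over all genes. Both substitutions were chosen after seeing the data. Fractions and transcriptomes were prepared separately, from pools of unequal size of the same batches, and the part of the preparation in this gap was not tested.

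At 3 points a gene was called on opposite sides of the transcriptomes in different classes of fraction. The share of all genes that do so was not determined. OOEP in GV oocytes was higher than the transcriptomes in polysomes (1.56 ± 0.36, adjusted p = 0.0013) and lower in monosomes (-1.11, adjusted p = 0.034) in edgeR's test. TLE6 in blastocysts was higher in polysomes (1.88 ± 0.41, adjusted p = 0.00075, edgeR) and lower in free RNA (-4.44, adjusted p = 0.0017). ZAR1 in blastocysts was lower in polysomes (-3.79 ± 1.27, adjusted p = 0.01996, edgeR) and higher in monosomes (1.45, adjusted p = 0.043). It was near the limit of detection there, with 11, 3 and 2 counts in the transcriptomes and polysome means of 0.0388 and 0.105 CPM. With F7 to F10 as polysomes the ZAR1 difference was 1.04. NPM2 in 8-cell embryos differed by -0.31 in polysomes (adjusted p = 0.79), which did not pass, and by 3.27 in free RNA (adjusted p = 0.0011, edgeR).

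**Figure D4:**
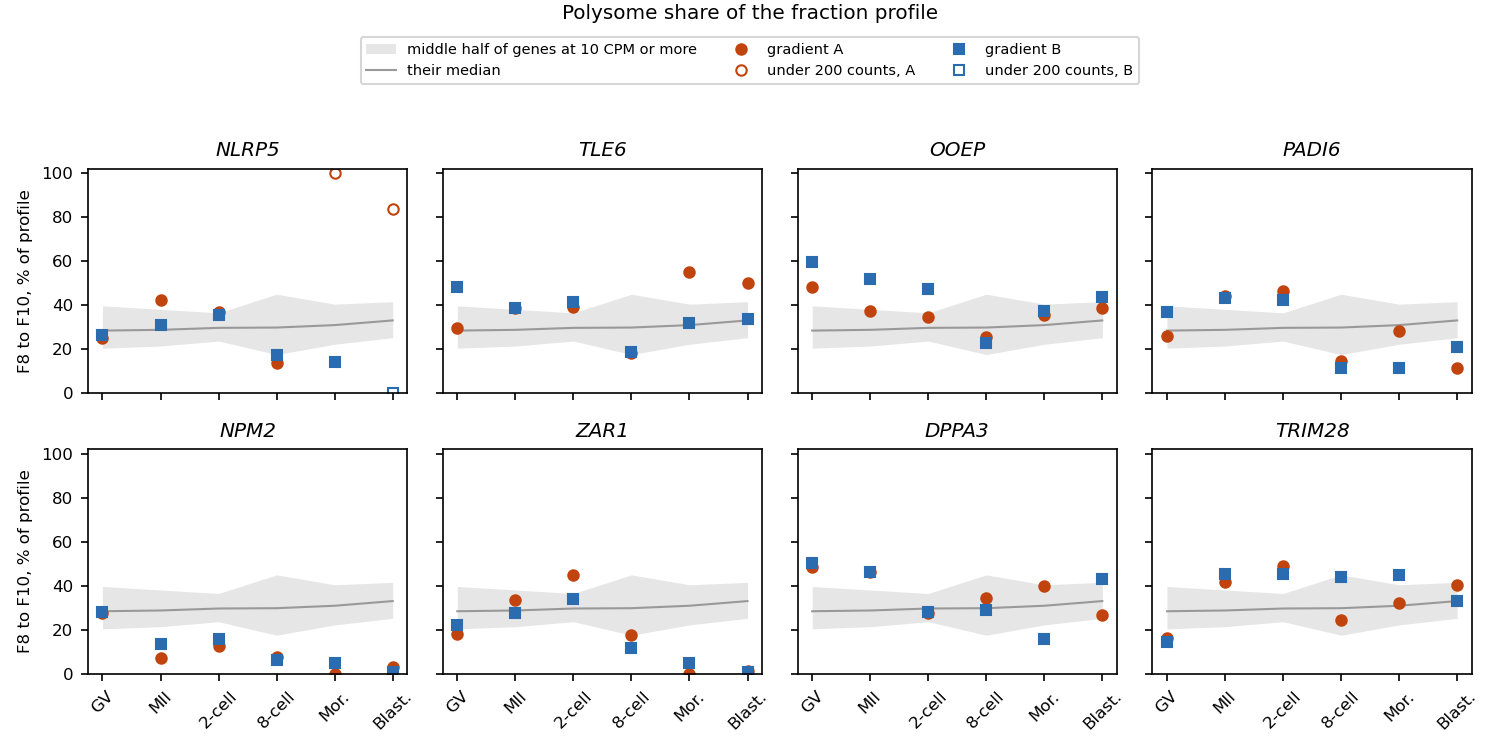
Share of the fraction profile in F8 to F10 (percent of the CPM summed over the 10 fractions of a gradient) for 8 genes at 6 stages, with circles for gradient A, squares for gradient B and open marks where a gradient held under 200 counts; the grey band runs from the lower to the upper quartile of genes at 10 CPM or more and the line is their median. NPM2 lies below the band from MII on, and DPPA3 lies above it in both gradients of GV and MII oocytes.

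Within the gradients the genes had different profiles. The share of a gene's summed CPM that lay in F8 to F10 had a median over genes at 10 CPM or more of 28.4% in GV oocytes (7216 genes), 28.7% at MII and 29.6% at the 2-cell stage, and the quartiles in GV oocytes were 20.4% and 39.6%. These shares are descriptions of 2 gradients each.

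OOEP had the highest mean polysome share in GV oocytes of the 8 genes shown. Its level in GV gradient A was 157 CPM in F3 and 168 CPM in F4, and 757, 1047 and 779 CPM in F8, F9 and F10. In gradient B it was 60.5 and 74.5 CPM in F3 and F4 and 1319.6, 1163 and 1533 CPM in F8 to F10. Both gradients had a trough at the monosomes and a second, smaller maximum in F1, at 574 and 762 CPM. The polysome share was 48.1% and 59.7%, and the monosome share 10.0% and 4.56%. Of the 9 genes, 1 (OOEP) was called higher in polysomes than in monosomes at this stage, by 2.97 ± 0.52 (adjusted p = 0.0087, edgeR), where 0.346% of all genes were. With a single GV gradient the difference was 3.72 or 2.23 and the call was lost. Free RNA was higher than monosomes as well, by 2.01 ± 0.50 (adjusted p = 0.048, edgeR), against 1.07% of all genes, and this call was lost in 13 of 20 alternatives. In MII oocytes the OOEP difference between polysomes and monosomes was 1.52 and in 2-cell embryos 1.46, with adjusted p of 0.33 and 0.95.

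TLE6 had polysome shares of 29.5% and 48.0% in the 2 GV gradients, which lay far apart, and of 38.5% and 38.6% in MII and 39.3% and 41.6% in 2-cell embryos. In 8-cell embryos the shares were 18.3% and 18.6%, and the monosome shares 54.1% and 41.7%. PADI6 went the same way, with polysome shares of 44.2% and 43.3% in MII, 46.4% and 42.1% in 2-cell and 14.7% and 11.4% in 8-cell embryos. NLRP5 had 36.8% and 35.6% in 2-cell and 13.5% and 17.3% in 8-cell embryos, and ZAR1 had a mean of 39.2 ± 7.74% (SD, n = 2) and of 14.5 ± 4.23%. OOEP had 34.4% and 47.1% in 2-cell and 25.7% and 22.7% in 8-cell embryos. For 7 of the 8 genes, these 5 with NPM2 and TRIM28, both 8-cell gradients had a lower polysome share than both 2-cell gradients, and for DPPA3 both had a higher one. Of 6253 genes at a mean of 10 CPM or more in the fractions of both stages, 37.1% were lower and 24.3% higher in this way, and the median of all genes was 29.6% and 29.8% at the 2 stages.

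In the 8-cell test of polysomes against monosomes the differences of NLRP5, TLE6, PADI6 and ZAR1 ran from -1.39 for TLE6 to -2.05 for PADI6, with adjusted p from 0.23 to 0.62, and 0 of 9 genes were called by edgeR's quasi-likelihood test, where 3.17% of all genes were higher and 2.66% lower. Of the 9, 1 had an unadjusted p below 0.05, and neither the likelihood ratio test nor DESeq2 called any. The pools of a gradient come from one lysate, and with the gradient as a block NLRP5 was called (-1.49, adjusted p = 0.044). TLE6, NPM2 and ZAR1 were called when either morula gradient was left out. In MII oocytes and 2-cell embryos 0 of 9 were called as well, with 3 and 2 at an unadjusted p below 0.05 and 0 by both other tests, and in morulae 0 were called, with 2 at an unadjusted p below 0.05 and 2 by each of the other tests. Of all genes, MII oocytes had 0.14% higher and 0.0532% lower, 2-cell embryos had 0% and 0%, and morulae had 0.12% and 0.246%. These shares and those at the 8-cell stage come from the quasi-likelihood test with all replicates and no block. The shares of all genes called by the other tests, with the block or without a morula gradient were not determined.

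NPM2 was light in the gradients from MII on. Its polysome share was 27.6% and 28.1% in GV oocytes, near the median, then 7.11% and 13.8% in MII, 12.7% and 15.8% in 2-cell and 7.50% and 6.42% in 8-cell embryos. Its highest fraction was F1 or F2 in every gradient of GV, 2-cell and 8-cell stages. In MII gradient B, F6 at 1316 CPM stood apart from its neighbours F5 and F7 at 201 and 134 CPM. The free RNA share was 70.1% and 47.7% in 8-cell embryos. In blastocysts NPM2 was at 14.5, 11.9 and 34.3 CPM in F2 to F4 of gradient A, at 63.0 and 42.0 CPM in F2 and F3 of gradient B, and at most 2.21 CPM in any polysome fraction. The test of polysomes against monosomes gave -4.99 ± 1.06 (adjusted p = 0.029, edgeR), where 0.299% of all genes were lower. Leaving out either blastocyst gradient, or either gradient of GV, MII or 2-cell, removed that call (adjusted p from 0.072 to 0.345), and so did taking F7 to F10 as polysomes.

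In morulae the NPM2 difference between polysomes and monosomes was -3.76 ± 0.98 (adjusted p = 0.079) without and -4.45 (adjusted p = 0.032) with the gradient as a block in edgeR. For ZAR1 it was -3.81 (adjusted p = 0.12) without and -6.31 (adjusted p = 0.011) with the block in morulae, and -5.37 (adjusted p = 0.093) and -5.35 (adjusted p = 0.026) in blastocysts. The share of all genes called with the block was not determined. ZAR1 had 5.33 and 9.58 CPM in its highest monosome fractions of blastocyst gradients A and B and at most 0.315 CPM in any polysome fraction there, while its highest value was 20.6 CPM in F7, of the intermediate class, of gradient B.

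DPPA3 had higher polysome shares in oocytes than in 2-cell embryos. Its polysome shares were 49.5 ± 1.31% (mean ± SD, n = 2) in GV, 46.3 ± 0.12% in MII and 27.8 ± 0.27% in 2-cell embryos. The 2-cell gradients were thus below those of both oocyte stages, near the median of all genes. The share of all genes that lie apart in this way was not determined. Its differences between polysomes and monosomes of 1.22 in GV and 1.42 in MII did not pass (adjusted p = 0.59 and 0.42, edgeR), and in 2-cell embryos the difference was 0.11.

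TRIM28 had the opposite order. Its polysome share was 15.3 ± 1.39% (n = 2) in GV oocytes, where F1 alone held 768 CPM in gradient A and 586 CPM in gradient B. It was 43.4 ± 2.63% in MII oocytes and 47.0 ± 2.57% in 2-cell embryos. In polysome share both GV gradients were below all 4 gradients of the next 2 stages. For this too the share of all genes was not determined. The differences between polysomes and monosomes of -0.94 in GV, 1.63 in MII and 1.45 in 2-cell embryos had adjusted p of 0.94, 0.49 and 1 (edgeR).

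In blastocysts TLE6 was at 0.980 and 0 CPM in F1 and F2 of gradient A and at 0 and 0.322 CPM in those of gradient B. Its monosome fractions F3 to F5 were uneven, at 14.0, 50.8 and 1.81 CPM in gradient A and 5.40, 0 and 66.9 CPM in gradient B. F7 of gradient B was at 0 CPM as well. F1 of gradient B was 1 of the 4 sparse libraries, with 1607843 counts, and F1 of gradient A had 2472274 counts. Free RNA was lower than monosomes by 6.03 ± 1.02 on the log2 scale (adjusted p = 0.0045, edgeR), where 0.704% of all genes were lower. The call was lost without blastocyst gradient B (-5.80, adjusted p = 0.094).

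Whether a change differed between polysomes and transcriptomes was tested as the log2 change in pools minus the log2 change in transcriptomes. From 2-cell to 8-cell, 1 of 8 genes had a higher value, TLE6 at 1.91 ± 0.58 (adjusted p = 0.033, edgeR), against 3.44% of all genes, with a fall of 5.08 in transcriptomes and of 3.17 in polysome pools. From 8-cell to morula, 2 had a lower value, TLE6 at -1.86 ± 0.59 (adjusted p = 0.0405) and PADI6 at -2.58 ± 0.71 (adjusted p = 0.018), against 5.41% of all genes. From morula to blastocyst, 2 had a lower value, ZAR1 at -5.17 ± 1.498 (adjusted p = 0.026) and TRIM28 at -1.37 ± 0.43 (adjusted p = 0.0405), against 6.23% of all genes. From GV to MII and from MII to 2-cell, 0 of 8 were called by edgeR's quasi-likelihood test, and 2 had an unadjusted p below 0.05 at each step. Of all genes, 7.14% had a higher and 3.49% a lower value at the first of these steps, and 0.725% and 1.08% at the second. The likelihood ratio test and DESeq2 each called 0 at the first and 1 at the second. All 5 calls were lost in at least 1 fit that left out a replicate, and that of ZAR1 turned to 3.46 without morula replicate B. Against the transcriptomes, the monosome and free RNA pools moved in the same direction as polysomes in all 5. Whether these differences are particular to polysomes was not tested.

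The 8 genes fell into patterns when their mean log2(CPM + 1) was followed over 18 groups, namely transcriptomes, monosome pools and polysome pools of 6 stages. Pearson's r was 0.97 between NLRP5 and PADI6, 0.95 between NLRP5 and ZAR1, 0.94 between TLE6 and PADI6 and 0.90 between TLE6 and OOEP. It was -0.11 between NLRP5 and DPPA3, -0.26 between TLE6 and DPPA3 and -0.84 between NPM2 and TRIM28. These 18 points share gradients and stages, and r over them is a description. The genes outside the 9 with the most similar pattern were ASTL (r = 0.99), which encodes the ovastacin protease of the egg, and PSTPIP1 (0.99) for NLRP5, and ACD (0.96) for TLE6. They were ZP3 (0.96), which encodes a zona pellucida protein, and PNOC (0.94) for OOEP, and POLM (0.99) and ARHGAP22 (0.98) for PADI6. A gene of similar pattern was LMO3 (0.95) for NPM2, and the most similar were for ZAR1 ZGLP1 and DRC7 (both 0.98), for DPPA3 GNPDA2 and EFCAB7 (both 0.97), and for TRIM28 ANTKMT and NUBP2 (both 0.92). Of the 16 genes chosen in this way from 11911, of which 14 are given here, 9 were chosen again with a pseudocount of 0.1. ASTL, PSTPIP1, PNOC, ARHGAP22, ZGLP1, DRC7 and EFCAB7 were not.

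Related genes were counted in the transcriptome at the 2-cell to 8-cell step, where 26.6% of all genes rose and 23.5% fell. Of the partners and NLRP relatives of the complex, 5 of 9 were in the table and 5 of 5 fell, with a median of -4.84. NLRP9 fell by 5.62 and KHDC3L, a subunit that binds NLRP5 and OOEP, by 4.94. Of 12 other maternal effect genes tested, 7 fell, 1 rose and 4 were not called, with a median of -2.18. KPNA7, an oocyte importin, fell by 5.63 and NOBOX, a transcription factor of the growing oocyte, by 5.29. The one that rose was BCAS2, a splicing factor, at 1.01.

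Of 10 partners of TRIM28, 4 rose and 1 fell, with a median of 0.33. CBX3, a heterochromatin protein, was at 2.15, 2.44 and 1.99 CPM in 2-cell and at 238, 224 and 224 CPM in 8-cell transcriptomes. ZFP57, a KRAB zinc finger protein that guards imprints, rose by 3.77, and the methyltransferase SETDB1 fell by 1.69. Of 12 paralogs of the 9 genes tested, 4 fell and 0 rose, with a median of -0.52, and the relatives of PADI6 among them were low, PADI3 at 3.13 to 3.86 CPM and PADI1 at 0.318 to 0.420 CPM in 2-cell transcriptomes and both at 0 counts in all 3 8-cell transcriptomes. The 7 oocyte markers all fell, with a median of -4.99, led by ZP4 (-5.64) and ZP2 (-5.57). Of 11 cumulus and granulosa markers 6 rose and 2 fell, with LUM and CYP11A1 rising most and STAR and HAS2 falling, and of 9 blastocyst lineage markers 5 rose, led by NANOG and TFAP2C, and CDX2 and GATA3 fell.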

How the data were processed

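The deposited table held expected counts, made by the authors with Smart-seq libraries and Salmon on the Ensembl bovine annotation. The methods name ARS-UCD1.2 and the submitters' processing notes UMD3.1, and which was used could not be settled. Of all values 11.7% were not whole, and counts were rounded for the tests. CPM used TMM factors over all 138 libraries. In gradients, the level of a pool is the mean CPM of its fractions, while tests used summed counts. The first fit held 30 libraries (12 polysome pools and 18 transcriptomes, 14612 genes), the second 36 pools of free RNA, monosomes and polysomes (15049 genes), both filtered with filterByExpr and tested with edgeR's quasi-likelihood test in edgeR 4.0.16 (limma 3.58.1, R 4.3.3), with Benjamini-Hochberg adjustment over all genes. A call required an adjusted p below 0.05 and a fold above 2. DESeq2 1.42.0, the likelihood ratio test, RLE factors, library totals, no filter, F7 to F10 as polysomes, a replicate block, omission of the 4 sparse libraries and omission of each replicate letter of a stage (its gradient and transcriptome together) were alternatives. A further one, with no fold limit, can add calls but remove none. For polysomes against transcriptomes, the monosome and free RNA pools in place of polysomes were counted as alternatives too. The fitting function was run on simulated counts with the same dispersion for every gene. That run does not cover genes whose gradients differ as widely as some here. Shares, CPM and figures were computed with Python 3.11.15, numpy 2.4.6, pandas 2.3.3 and matplotlib 3.10.9.

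Totals per library were 1229382 to 17342859 counts in fractions and 3269386 to 11812567 in transcriptomes, and the reads carried no molecular identifiers here, so limits from 3 counts cover counting error only. All 9 genes were described at every stage, with 2 genes of most similar pattern for each of the 8 that passed the filter. Of these similar genes, 2 are not reported here. The members and the lists were chosen with earlier results of these data known. P-values measure the spread between these pooled samples. Polysome and monosome pools of a gradient share a lysate, and the correlation of their deviations from stage means ran from -0.0096 to 0.143. For polysome pools and transcriptomes of the same letter it ran from -0.065 to 0.024. Since it was as low as -0.0096 for pools that do share a lysate, it cannot decide whether the letters pair them.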

Additional observations from a re-analysis of the deposited data

Results flagged for a closer look

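In 5 results the change in polysome pools differed from the change in transcriptomes by edgeR's test of the difference itself. For TLE6 the difference, as log2 change in pools minus log2 change in transcriptomes, was 1.91 from the 2-cell to the 8-cell stage (adjusted p = 0.033) and -1.86 from the 8-cell stage to the morula (adjusted p = 0.0405). The first was lost without 2-cell replicate A, B or C or 8-cell replicate A or C, and the second under 11 of 27 alternatives. For PADI6 it was -2.58 from the 8-cell stage to the morula (adjusted p = 0.018), lost without 8-cell replicate A (-2.49) or morula replicate A (-1.88). For ZAR1 it was -5.17 from morula to blastocyst (adjusted p = 0.026), and 3.46 without morula replicate B. For TRIM28 it was -1.37 at the same step (adjusted p = 0.0405), lost under 12 of 27 alternatives with values from -1.50 to -1.24. Against the transcriptomes, the monosome and free RNA pools moved in the same direction as polysomes in all 5. From 2-cell to 8-cell the TLE6 difference went from 2.88 to 6.76 with monosomes and from 2.29 to 4.69 with free RNA. From morula to blastocyst that of ZAR1 went from 4.99 to 1.45 and from 4.48 to -0.37. Whether the 5 results are particular to polysomes was not tested. Groups of 2 or 3 libraries were too small for a test of single outlying samples.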

How the results depend on the processing

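The 24 calls between transcriptomes, 28 between polysome pools and 40 of polysomes against transcriptomes stayed within 1.5 times under every alternative run, with 22 to 26, 24 to 30 and 38 to 45 calls when a replicate was left out. The other counts were small and moved. The 5 calls for the difference between the 2 kinds of change became 9 with the likelihood ratio test and 9 with DESeq2, and 2 to 9 with a replicate left out. The 2 calls of polysomes against monosomes became 5 with the likelihood ratio test, 5 with DESeq2, 1 with F7 to F10 as polysomes and 0 to 8 with a replicate left out. The 2 calls of free RNA against monosomes became 4 with DESeq2, 1 with RLE factors, 1 with library totals, 1 with no filter and 0 to 7 with a replicate left out. The cause was not tested. With the gradient as a replicate block, polysomes against monosomes gave 6 calls. The shares of all genes called under these alternatives were not determined. The block removed the TLE6 rise in polysomes from GV to MII (adjusted p = 0.071) and the TLE6 difference between the 2 kinds of change from 8-cell to morula (adjusted p = 0.060, edgeR), besides those given with their results, and changed no other call.

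Of the results called either with all replicates or with 1 left out, 6 changed direction in a fit with 1 left out, each time without morula replicate B, and results called in neither fit are not listed here. From morula to blastocyst in polysomes NLRP5 ran from -9.94 to 4.54 and ZAR1 from -5.56 to 3.72. Against the transcriptomes of morulae NLRP5 ran from -4.91 to 3.67 and ZAR1 from -7.24 to 2.28. PADI6 in free RNA against monosomes of morulae ran from -5.38 to 0.43, and the ZAR1 difference between the 2 kinds of change from -6.41 to 3.46. Against transcriptomes, the free RNA pool in place of polysomes turned TLE6 in blastocysts (-4.44), NPM2 in 8-cell embryos (3.27), morulae (3.69) and blastocysts (0.93) and TRIM28 in 2-cell embryos (-0.28). The monosome pool turned OOEP in GV oocytes (-1.11), NPM2 in morulae (2.66) and blastocysts (0.17), ZAR1 in blastocysts (1.45) and TRIM28 in MII oocytes (-0.052), and F7 to F10 as polysomes turned ZAR1 in blastocysts (1.04). Of 48 polysome shares, 39 moved by less than the SD of the 2 gradients without TMM factors, and the largest move was 5.50 percentage points.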
